A study of Mus musculus with 8 samples.

Results

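The genes described here encode subunits of the mitochondrial respiratory chain. They were measured in the tibial plateau of the mouse knee, taken as a single block of articular cartilage and subchondral bone. Members were taken by symbol: Nduf, Sdh, Uqcr, Cox4 to Cox8 and Atp5 genes of the deposited annotation, 82 of the 20667 genes measured. Where a gene had several probe sets, the one brightest on average across the 8 arrays stood for it.

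The study compared 4 wild-type mice of strain C57BL/6 with 4 Anp32a knockout mice (genotype label ANP32A KO), all 8 weeks old, with 1 array per sample. Anp32a codes for a nuclear phosphoprotein of the leucine-rich repeat family. The labels give the knockout mice no strain or source and do not say which part of Anp32a was deleted. All groups share the same tissue, age and protocol, and the labels name no treatment, sex, batch or scan date.

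The respiratory chain passes electrons from NADH and succinate to oxygen and uses the energy to pump protons across the inner mitochondrial membrane. Complexes I and II feed electrons in, complex III hands them to cytochrome c, complex IV reduces oxygen, and complex V, the ATP synthase, uses the proton gradient to make ATP. Skeletal and heart muscle are rich in these complexes and use their own isoforms of some complex IV subunits: Cox6a2, Cox7a1 and Cox8b stand in place of Cox6a1, Cox7a2 and Cox8a. Cartilage cells are known to rely largely on glycolysis.

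The promoters of Cox8b and its counterpart Cox8a, and of the counterpart Cox6a1, are shown because the muscle isoforms had the most negative log2 fold changes below, unlike these counterparts. Cox8b is the only muscle isoform shown. Cox6a2 had no promoter entry, and Cox7a1 and its counterpart Cox7a2 are not shown. Each sequence runs 5′ to 3′ from 250 bases before to 50 bases after the start of the gene (RefSeq, GRCm38.p6). Capitals mark matches on either strand to 6 motifs, and overlapping matches count for each. The palindromic NRF-1 motif is bound by the factor of that name, and CCGGAAG is a site of ETS factors such as the one encoded by Gabpa. The motif AAGATGGC is known for the factor YY1. Oestrogen-related receptors are known to bind TCAAGGTCA. The E-box of myogenic factors searched for was CAGCTG. The last motif was the classical core promoter element TATAAA.
Cox8b, muscle isoform, chr7:140900397-140900696, minus strand: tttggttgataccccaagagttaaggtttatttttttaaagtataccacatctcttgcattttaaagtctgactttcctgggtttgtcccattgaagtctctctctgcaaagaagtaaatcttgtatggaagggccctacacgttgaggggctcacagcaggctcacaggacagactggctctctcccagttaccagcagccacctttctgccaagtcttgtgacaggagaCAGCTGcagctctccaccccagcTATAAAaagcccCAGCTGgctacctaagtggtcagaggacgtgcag
Cox8a, counterpart, chr19:7217567-7217866, minus strand: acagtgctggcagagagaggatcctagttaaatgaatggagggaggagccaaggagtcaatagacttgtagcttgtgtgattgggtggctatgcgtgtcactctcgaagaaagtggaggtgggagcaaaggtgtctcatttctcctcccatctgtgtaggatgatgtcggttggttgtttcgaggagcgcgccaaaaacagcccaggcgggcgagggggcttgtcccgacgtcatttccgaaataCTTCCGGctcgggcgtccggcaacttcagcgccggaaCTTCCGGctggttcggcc
Cox6a1, counterpart, chr5:115348909-115349208, minus strand: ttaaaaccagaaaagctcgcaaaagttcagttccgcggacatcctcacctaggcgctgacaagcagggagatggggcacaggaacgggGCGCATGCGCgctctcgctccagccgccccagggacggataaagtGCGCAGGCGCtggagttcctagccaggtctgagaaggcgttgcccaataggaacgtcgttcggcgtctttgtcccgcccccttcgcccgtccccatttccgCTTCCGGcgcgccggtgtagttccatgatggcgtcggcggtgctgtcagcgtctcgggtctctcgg

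The Cox8b window holds CAGCTG and TATAAA and no match to the other motifs. The Cox8a window holds CCGGAAG, and that of Cox6a1 both the NRF-1 motif and CCGGAAG. RefSeq promoters matched 67 of the 82 members, with 73 windows in all. The NRF-1 motif was found in 23.3% of these windows against 4.6% of all 32851 promoters, CCGGAAG in 21.9% against 8.86%, and AAGATGGC in 16.4% against 2.75%. At least 1 of these 3 lay in 53.4% of member windows and 14.7% of all. CAGCTG was found in 8.22% against 16.3%, TATAAA in 8 of 73 against 13.6%, and TCAAGGTCA in 2.74% against 0.423%. A match describes letters in a window and is no evidence of binding.

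Facts of the whole series bear on what follows. One Anp32a probe set read 9.88 ± 0.08 in wild type and 4.60 ± 0.49 in knockout, and was called absent on each knockout array (adjusted p = 5.9e-06 by limma, all probe sets tested). This went with the label of every array. The other probe sets of Anp32a stayed present on all 8. Values are log2 RMA values, where RMA is the authors' background correction, quantile normalization and probe summary. Errors are SD with n = 4 unless named SE, and every log2 fold change is knockout minus wild type. All 17 chondrocyte markers tested were present on 8 of 8 arrays, Col2a1 and Acan among them. So were all 25 skeletal muscle markers, although the label names cartilage. Knockout 2 and knockout 3 stood apart from the other arrays in these muscle markers, and results are therefore also given without them.

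Respiratory chain genes read lower in the knockout on average, and no single one passed the test over all genes. The log2 fold change was below 0 for 74 of 82 members (90.2%), against 46.2% of all genes. The median was -0.33 over the members and 0.013 over all genes. With limma and Benjamini-Hochberg adjustment over all genes, 0 members were called lower, where 0.0242% of all genes were, and 0 higher, where 0.029% were (0.0532% in either direction). The smallest member value was an adjusted p of 0.159. At an unadjusted p under 0.05, 29 members (35.4%) were lower, where 9.26% of all genes were, and 2 were higher, where 10.1% were. The genotypes did not overlap, with knockout lower, for 3 members (3.66%), a share near the 5.42% of all genes.

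The low values lay mostly on 2 of the 4 knockout arrays. The median distance of the members from their wild-type mean was -0.62 on knockout 2 and -0.49 on knockout 3, but -0.075 on knockout 1 and -0.037 on knockout 4. Knockout 2 held the lowest of all 8 values for 71 of the 82 members. Knockout 2 and knockout 3 each lay below every wild type for 72 members, knockout 1 for 15 and knockout 4 for 4. Among all genes that share was 26%, 28.6%, 26.7% and 16.1% in the same order of arrays.

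Wild type 2 also stood low within its group, below the wild-type mean for 77 of 82 members (median distance -0.20). Without knockout 2 and knockout 3 together, the median log2 fold change of the members was -0.059. None was called (background 0.00484% lower), 2 members were lower at an unadjusted p under 0.05 (background 3.93%) and 1 was higher (3.09%). Without knockout 4, the arrays left held the 2 low ones among 3 knockouts, and 11 members were called lower (13.4%, where 4.07% of all genes were) and 1 higher (1.22%, where 4.57% were).

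**Figure D1:**
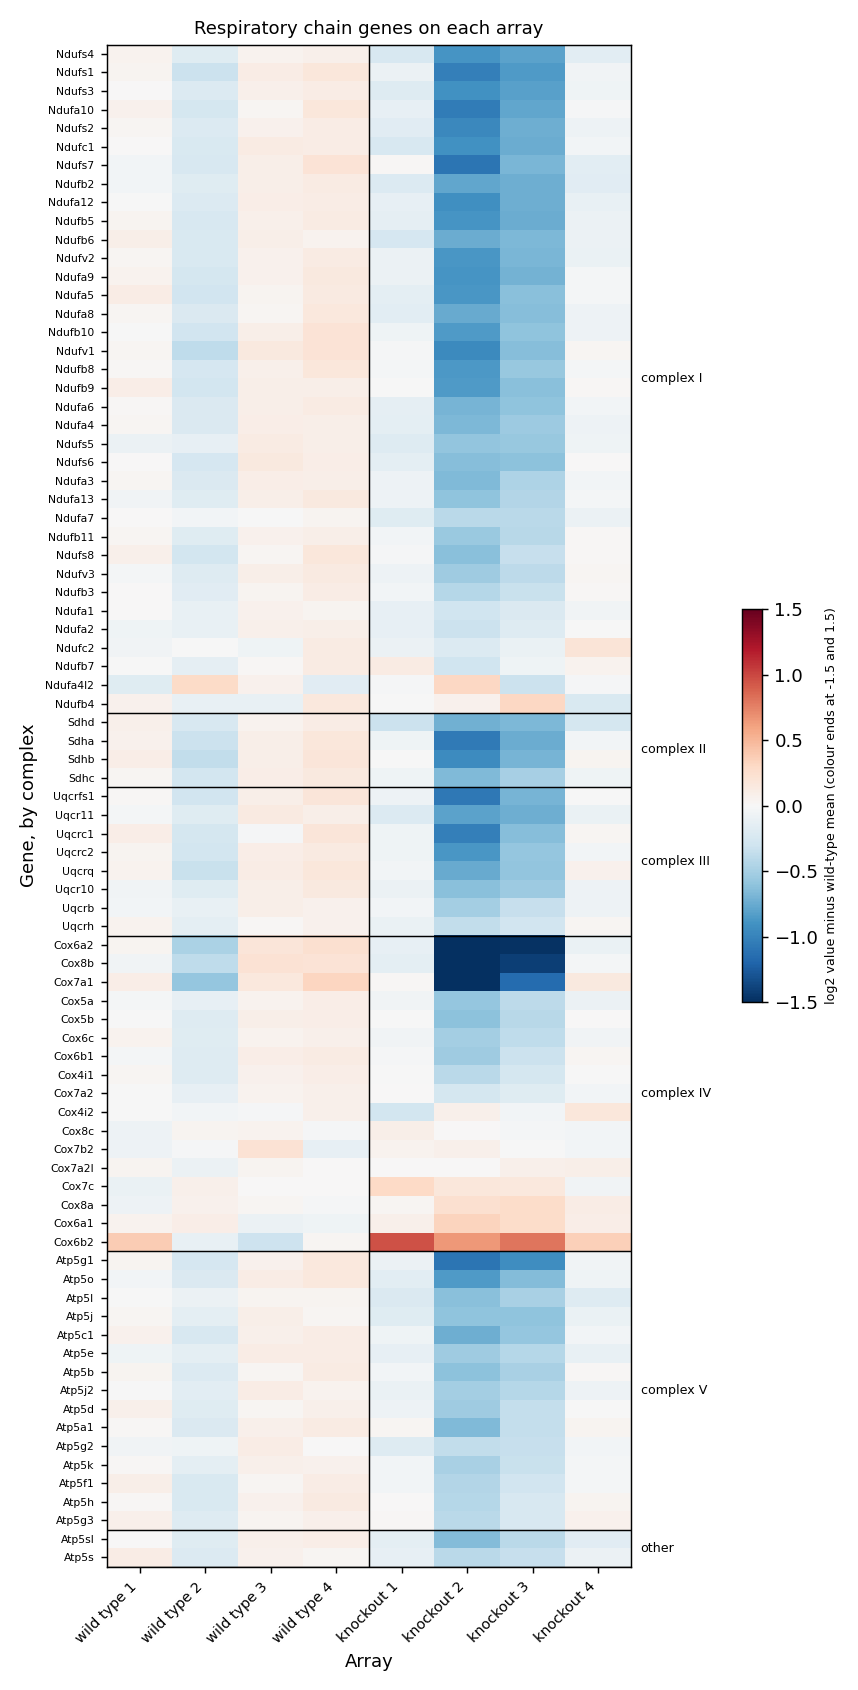
Log2 value minus the wild-type mean of each of the 82 genes (rows, by complex, ordered by log2 fold change within each) on the 8 arrays (columns); blue is lower and red higher. Knockout 2 and knockout 3 are blue for most genes of every complex, and knockout 1 and knockout 4 look much like the wild types; most exceptions are in complex IV.

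The 25 skeletal muscle markers followed the same arrays. The mean of the 25 muscle markers, relative to the mean of 8 arrays, was -1.28 on knockout 2 and -0.64 on knockout 3, and 0.16 and 0.26 on knockout 1 and knockout 4. Wild types 1 to 4 read 0.37, 0.16, 0.43 and 0.53. The mean of the 82 respiratory chain genes read -0.47 and -0.32 on knockout 2 and 3, 0.08 and 0.12 on knockout 1 and 4, and 0.17, -0.041, 0.21 and 0.25 on wild types 1 to 4. Both sets thus had their lowest values on knockout 2 and their highest on wild type 4. All 25 muscle markers had a log2 fold change below 0, with a median of -0.82, and none was absent. A separate list of 10 slow oxidative fibre genes, Tnni1 absent on all arrays, followed these arrays less closely. Its mean was -0.73 on knockout 2 and -0.40 on knockout 3, but also -0.46 on wild type 2. Its median log2 fold change was -0.56, with 8 genes below 0 and 2 above. Its summed level was 9606 to 13633 in wild type and 10034 to 10691 in knockout.

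Summed on the linear scale, the 25 skeletal muscle markers reached 400517 to 469212 in wild type and 182442 to 408882 in knockout. In bulk tissue, fewer muscle cells in the piece and less RNA per muscle cell cannot be told apart. With the muscle marker mean as a covariate the members' median log2 fold change was 0.019, 0 were called (background 0.00484% lower), and 2 were lower and 2 higher at an unadjusted p under 0.05 (background 3.75% and 3.15%). That marker mean itself read lower in the knockout, so no fit with this covariate can separate genotype from the muscle markers. Other markers moved too. The summed level of 16 adipocyte markers, Lep and Ucp1 absent on all arrays, was 63032 to 86069 in wild type and 53869 to 84073 in knockout, lowest on knockout 2 and 3. The summed level of 16 erythroid markers, Hba-a1 absent on all arrays, was 20243 to 42027 in wild type and 28337 to 58706 in knockout, highest on knockout 1. The median log2 fold change was 0.56 for 25 cell cycle markers, 0.51 for 14 B cell markers, 0.32 for 13 osteoclast markers and 0.30 for 12 neutrophil markers. The part of these lists in the result was not tested.

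**Figure D2:**
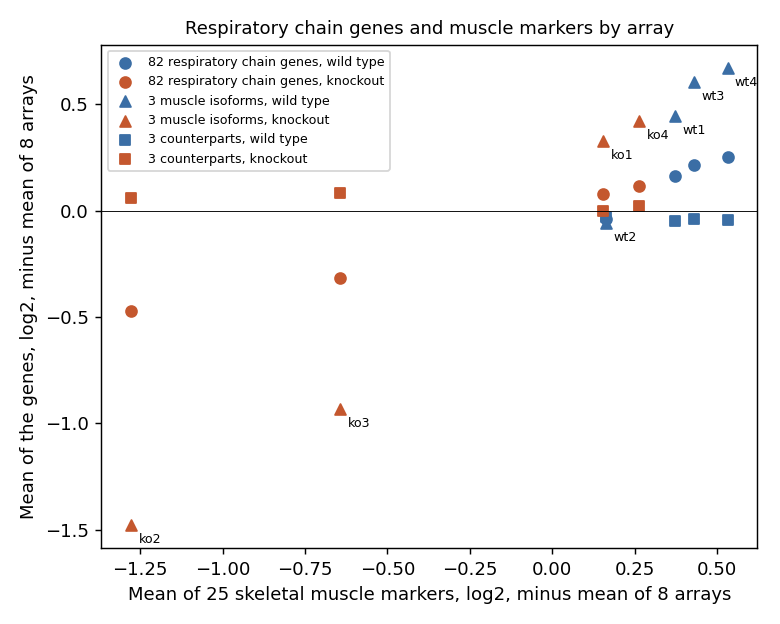
Mean log2 value of the 82 respiratory chain genes (circles), the 3 muscle isoforms (triangles, labelled by array) and their 3 counterparts (squares), each minus its mean over the 8 arrays, against the same for 25 muscle markers; blue is wild type, orange knockout. Knockout 2 and 3 lie at the far left, low for the muscle isoforms (-1.48 and -0.93) and slightly above 0 for the counterparts (0.062 and 0.082).

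Complex I takes electrons from NADH. Its 36 genes by symbol had a median log2 fold change of -0.37, 35 of them below 0. At an unadjusted p under 0.05, 15 were lower (9.26% of all genes were). Ndufs4, an accessory subunit whose loss causes a Leigh-like disease in mice, read 11.17, 10.94, 11.17 and 11.20 in wild types 1 to 4 and 10.88, 10.24, 10.32 and 10.96 in knockouts 1 to 4. Knockout 2 and 3 were low, while knockout 4 lay just above wild type 2. The log2 fold change was -0.52 ± 0.16 (SE, limma adjusted p = 0.172).

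Ndufa7, an accessory subunit, was the 1 complex I gene whose genotypes did not overlap on the probe set kept: 12.20, 12.15, 12.19 and 12.24 in wild type against 12.02, 11.79, 11.79 and 12.11 in knockout. Its log2 fold change of -0.27 was small (SE 0.084, limma adjusted p = 0.171), and all 5 of its probe sets read lower, by -0.20 to -0.30. A dimmer probe set of Ndufc1, singled out after its values were seen, did not overlap either (-0.51). Ndufb2, another accessory subunit, read 12.47 ± 0.14 in wild type and 11.997 ± 0.33 in knockout, a difference of -0.47 (limma adjusted p = 0.175). Ndufa1 and Ndufa3, taken for their bright probe sets, gave -0.17 and -0.31.

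Not every complex I symbol was informative. Ndufc2 was absent on all 8 arrays (5.67 ± 0.08 and 5.62 ± 0.17). Ndufa4l2, an isoform known as hypoxia-inducible, was present on 1 array and Ndufb4 on 6; both were singled out after their values were seen. Ndufa4, grouped here by its symbol, is known to belong to complex IV (log2 fold change -0.36, limma adjusted p = 0.209; singled out likewise).

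Complex II, succinate dehydrogenase, also serves the citric acid cycle, and all of its subunits are nuclear encoded. All 4 read lower: Sdha, the flavoprotein, by -0.48, Sdhb, the iron-sulphur protein, by -0.40, and the membrane anchors Sdhc and Sdhd by -0.32 and -0.50. Sdhd read 11.96, 11.65, 11.93 and 11.995 in wild types 1 to 4 and 11.56, 11.17, 11.21 and 11.62 in knockouts 1 to 4, so that the genotypes did not overlap (limma adjusted p = 0.159). Its second probe set gave -0.38 and overlapped, with knockout 1 and 4 at 9.52 and 9.53 and wild type 2 at 9.49. Sdha overlapped, since knockout 1 and 4 read 12.62 and 12.64 and wild type 2 read 12.36 (limma adjusted p = 0.287).

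Complex III moves electrons from ubiquinol to cytochrome c. Its 8 genes were all below 0 with a median of -0.36, and 2 were lower at an unadjusted p under 0.05 (9.26% of all genes were). Uqcr11, a small subunit, averaged 12.63 ± 0.14 in wild types and 12.17 ± 0.36 in knockouts, a difference of -0.46 (limma adjusted p = 0.19). Uqcr10, Uqcrb and Uqcrh, small subunits or, for Uqcrh, the hinge protein, gave -0.33, -0.24 and -0.18 (limma adjusted p = 0.239, 0.261 and 0.334). Dimmer probe sets of Uqcr10, present on 8 of 8 arrays, gave -0.56 and, without overlap of the genotypes, -0.80 (limma over all probe sets, adjusted p = 0.19 and 0.139). Those of Uqcrb and Uqcrh gave -0.43 and -0.18. On knockout 1 and 4 the median distance of the complex from the wild-type mean was -0.045 and on knockout 2 and 3 it was -0.70.

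Complex V had all 15 subunit genes below 0, with a median of -0.28. At an unadjusted p under 0.05, 7 were lower (9.26% of all genes were). Atp5l, subunit g of the membrane part, read 13.09, 13.01, 13.14 and 13.14 in wild type and 12.88, 12.47, 12.61 and 12.91 in knockout, without overlap (log2 fold change -0.38 ± 0.10 SE, limma adjusted p = 0.16). Atp5j, coupling factor 6, gave -0.37 and Atp5b, the catalytic beta subunit, -0.28 (limma adjusted p = 0.182 and 0.333).

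Subunit c, which forms the rotating ring, is made from Atp5g1, Atp5g2 and Atp5g3, which encode the same mature protein. They gave -0.54, -0.24 and -0.14 (limma adjusted p = 0.248, 0.19 and 0.54; Atp5g1 was singled out after its values were seen). Atp5g1 was also far below its wild-type mean on knockout 2 (-1.10) and knockout 3 (-0.93), while Atp5g3 lay at -0.40 and -0.24 there. The symbol rule also took Atp5s and Atp5sl, now named Dmac2l and Dmac2, which are not counted as subunits (-0.24 and -0.34).

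Complex IV was the mixed one. Of its 17 genes 10 were below 0 and 7 above, with a median of -0.12. At an unadjusted p under 0.05, 2 were lower and 2 higher, near the shares of all genes (9.26% and 10.1%). It held both the most negative member, Cox6a2, and the most positive, Cox6b2. Without the 3 muscle isoforms its median was -0.007. That median counts Cox7b2 and Cox8c, absent on all 8 arrays, and Cox4i2, Cox6b2 and Cox7c, with means of 6.73, 7.24 and 7.75. Cox4i1, Cox6b1 and Cox6c, singled out after their values were seen, gave -0.17, -0.21 and -0.25 (limma adjusted p = 0.42, 0.415 and 0.283). Cox6a1, Cox8a and Cox7a2l went the other way, at 0.19, 0.16 and 0.044. Cox5a and Cox5b, nuclear-encoded structural subunits, gave -0.28 and -0.26 (limma adjusted p = 0.252 and 0.36). One further probe set of Cox5b read 0.20 higher at an unadjusted p of 0.0468 and was absent on all arrays, while the 4 present ones read -0.24 to -0.43.

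**Figure D3:**
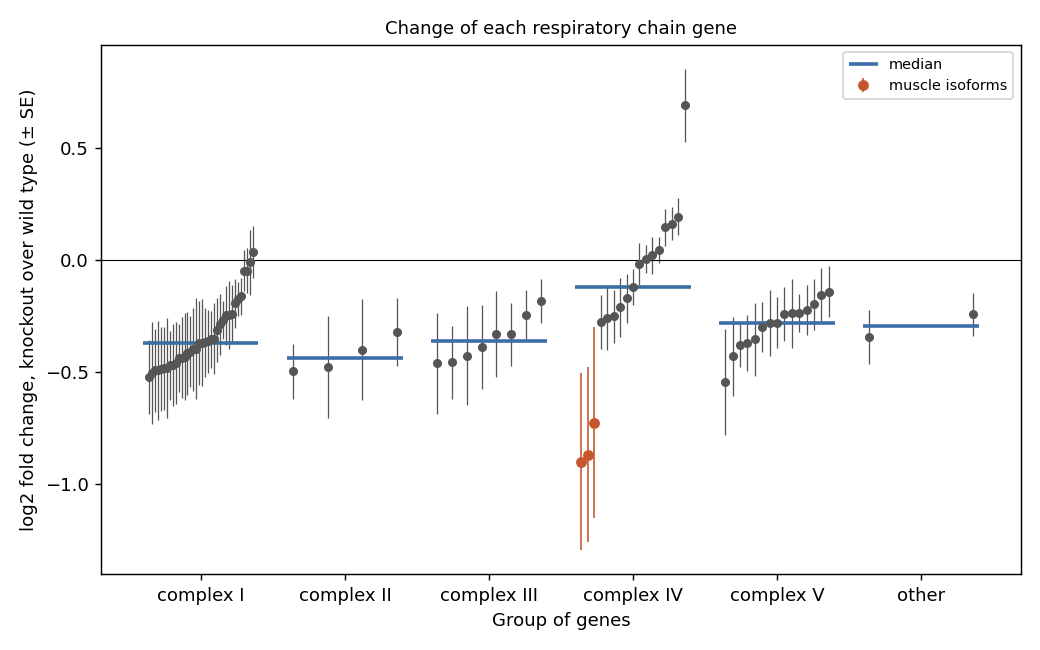
Log2 fold change (knockout over wild type, bars are SE) of each gene by complex, with the median of each group as a blue line and the 3 muscle isoforms in orange. Medians lie at -0.37, -0.44, -0.36, -0.12 and -0.28 for complexes I to V, and complex IV spans -0.90 to 0.69.

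The 3 muscle isoforms of complex IV had the most negative log2 fold changes of all 82 genes. Cox6a2 read 13.03, 12.51, 13.17 and 13.23 in wild types 1 to 4 and 12.86, 11.09, 11.50 and 12.88 in knockouts 1 to 4 (log2 fold change -0.90 ± 0.40 SE, limma adjusted p = 0.252). Cox8b read 12.96, 12.63, 13.23 and 13.21 against 12.86, 11.12, 11.60 and 12.97 (-0.87 ± 0.39 SE, limma adjusted p = 0.261). Knockout 2 and 3 were far below all other arrays for both genes, and knockout 1 and 4 lay among the wild types.

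Cox7a1 showed the same split, with 12.31, 11.64, 12.37 and 12.53 in wild type and 12.22, 10.30, 11.05 and 12.36 in knockout (-0.73 ± 0.43 SE, limma adjusted p = 0.384). Its mean without knockout 2 and 3 was 0.079 above wild type. With the muscle marker mean as a covariate Cox7a1 read 0.32 higher (unadjusted p = 0.029, limma adjusted p = 0.712).

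The counterparts had small differences, with 2 of 3 above 0. Cox6a1 read 13.86, 13.90, 13.71 and 13.73 in wild type and 13.87, 14.13, 14.07 and 13.90 in knockout, highest on the 2 arrays where Cox6a2 was lowest (log2 fold change 0.19, limma adjusted p = 0.23). Cox8a read 11.64, 11.78, 11.75 and 11.70 against 11.74, 11.95, 11.99 and 11.83, again highest on knockout 2 and 3 (0.16, limma adjusted p = 0.259). Cox7a2 read 13.55 ± 0.09 and 13.43 ± 0.13, with knockout 2 and 3 lowest by a small distance (-0.12, limma adjusted p = 0.46).

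The difference within each pair was tested by itself, with an exact two-sided permutation test over the 70 splits of 8 arrays, whose smallest p is 0.0286. The muscle isoform changed relative to its counterpart by -1.09 for Cox6a2 against Cox6a1 (exact p = 0.114, adjusted 0.171 over 3 pairs) and by -1.03 for Cox8b against Cox8a (exact p = 0.114, adjusted 0.171). For Cox7a1 against Cox7a2 it was -0.61 (exact p = 0.229, adjusted 0.229). None passed, and the genotypes overlapped in each pair. After adjustment over 3 pairs, a lone pair at the smallest p could not have passed, so more than 1 pair had to reach it. SDs of the pair difference were 0.41, 0.31 and 0.31 in wild type and 1.05, 1.02 and 0.86 in knockout, in the order Cox6a, Cox8 and Cox7a. Without knockout 2 and 3 the 3 differences were -0.20, -0.16 and 0.094.

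**Figure D4:**
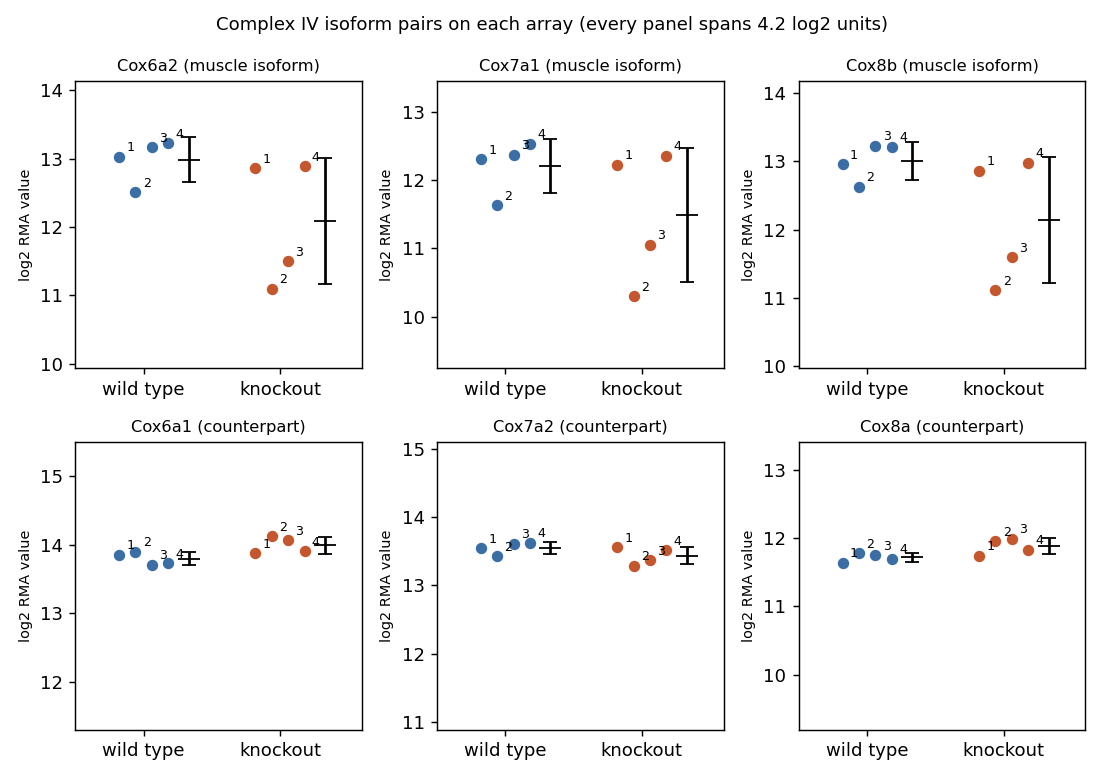
Log2 RMA value of the muscle isoforms Cox6a2, Cox7a1 and Cox8b (upper row) and their counterparts Cox6a1, Cox7a2 and Cox8a (lower row) on each array, numbered by sample, with the mean and SD of 4 beside the points. In the upper row knockout 2 and 3 lie between 10.30 and 11.60, while knockout 1 and 4 stay with the wild types; the counterparts vary little.

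Other isoforms of complex IV fell outside the muscle pattern. Cox6b2, an isoform of Cox6b1 known from testis, read 7.28, 6.78, 6.59 and 6.93 in wild types 1 to 4 and 7.85, 7.55, 7.70 and 7.25 in knockouts 1 to 4. Knockout 4 lay just below wild type 1, and all other knockouts lay above every wild type. It was the member of largest positive change (0.69 ± 0.16 SE, limma adjusted p = 0.159), and gave 0.80 and passed without knockout 4 (limma adjusted p = 0.0319). It read 0.65 without knockout 2 and 3 and 0.66 with the muscle covariate (unadjusted p = 0.0162 and 0.0146, limma adjusted p = 0.648 and 0.712).

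Cox7b2 and Cox8c, the other testis isoforms, were absent on all 8 arrays and gave 0.021 and 0.005. Cox4i2, an isoform known from lung, gave -0.019, and Cox7a2l, a factor of supercomplex assembly, 0.044. Cox7c read 0.15. These last 3 genes were singled out after their values were seen.

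Of the members, 4 lie within 20 Mb of Anp32a on chromosome 9 by the GRCm38.p6 annotation: Sdhd, Atp5l, Cox5a and Cox7a2. Sdhd and Atp5l were the 2 members that were lower at an unadjusted p under 0.05 without knockout 2 and 3 (-0.30 and -0.20, unadjusted p = 0.027 and 0.0269, limma adjusted p = 0.671 each). They were also the 2 lower ones with the muscle covariate (-0.25 and -0.16, unadjusted p = 0.0326 and 0.0417, limma adjusted p = 0.712 each). In either fit 2 members are 2.44% of the 82, below the 3.93% and 3.75% of all genes that were lower. The part of their position was not tested. Sdhd lay at -0.33 and -0.27 and Atp5l at -0.22 and -0.19 relative to the wild-type mean on knockout 1 and knockout 4. Cox5a lay at -0.050 and -0.083 and Cox7a2 at 0.008 and -0.038 there. In the fit without knockout 4, Sdhd and Atp5l passed (limma adjusted p = 0.0355 and 0.039), as did Ndufa7, Ndufs4, Ndufb2, Atp5j, Atp5g2 and Uqcr11, and the complex I genes Ndufb6, Ndufc1 and Ndufs5 (0.0415 to 0.0497; the last 3 were singled out after their values were seen).

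**Figure D5:**
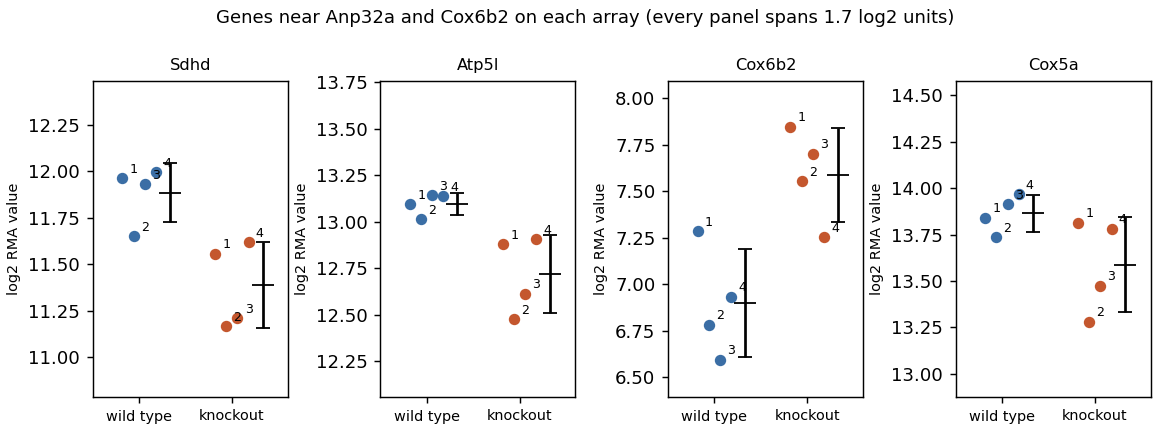
Log2 RMA value of Sdhd, Atp5l and Cox5a, which lie near Anp32a on chromosome 9, and of Cox6b2, on each array, numbered by sample, with the mean and SD of 4 beside the points. On the probe sets kept, Sdhd and Atp5l are lower on all 4 knockout arrays than on any wild type. Cox6b2 is higher on 3 of 4, and for Cox5a knockout 1 and 4 overlap the wild types.

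Other genes of oxidative metabolism were also lowest on knockout 2 and 3 as groups; the single genes named from these lists were picked after their values were seen. All 16 citric acid cycle genes were below 0 (median -0.44, 6 lower at an unadjusted p under 0.05). So were 18 of 19 genes listed as electron carriers and other subunits outside the symbol rule (median -0.31, 8 lower and 1 higher). That list also holds coenzyme Q synthesis genes (Coq and Pdss) and Atpif1, the 1 higher, which are not carriers or chain subunits. Of all genes 9.26% were lower and 10.1% higher. Cytochrome c (Cycs) gave -0.44 and cytochrome c1 (Cyc1) -0.39 (limma adjusted p = 0.203 and 0.305). Fatty acid oxidation genes had a median of -0.22 with 15 of 16 below 0 and none at an unadjusted p under 0.05. ND5, encoded in mitochondrial DNA, read 14.70 ± 0.12 and 14.50 ± 0.24 (-0.20, limma adjusted p = 0.389). None of these genes passed over all genes.

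The 44 assembly factors, which build the complexes without being part of them, had a smaller median of -0.22, yet 26 were lower at an unadjusted p under 0.05 (9.26% of all genes were) and 17 lay below the wild types without overlap (5.42% of all genes did). Their median distance was -0.35 on knockout 2 and 3 and -0.14 on knockout 1 and 4, where the 82 subunit genes had -0.56 and -0.059. With the muscle covariate the assembly factors read -0.13. None passed over all genes, and 14 were called lower without knockout 4, where 4.07% of all genes were.

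Regulators of mitochondrial biogenesis went both ways, with 12 of 17 below 0. At an unadjusted p under 0.05, 5 were lower and 2 higher (9.26% and 10.1% of all genes were). Ppargc1a, a coactivator that raises respiratory gene expression in muscle, averaged 9.07 ± 0.33 in wild types and 8.00 ± 0.92 in knockouts, a difference of -1.07 (limma adjusted p = 0.197). Knockout 2 and 3 read 7.07 and 7.34, while knockout 1 and 4 read 8.82 and 8.77, above wild type 2 at 8.57. Esrrg and Perm1 gave -1.05 and -1.01 (limma adjusted p = 0.257 and 0.298). Nrf1, the gene of the factor NRF-1, read 8.15 ± 0.13 and 8.49 ± 0.13 (0.34, limma adjusted p = 0.16), and Gabpa and Tfam gave -0.007 and -0.085. Tfb2m and Polrmt gave -0.35 and -0.32 (limma adjusted p = 0.16 and 0.163). Both lay below every wild type on all 4 knockout arrays, as 5.42% of all genes did. Gabpb1 gave 0.34 (limma adjusted p = 0.166) and lay above every wild type there, as 4.61% of all genes did. Among creatine kinases, the muscle form Ckm gave -0.71 and mitochondrial Ckmt2 -0.85 (limma adjusted p = 0.207 and 0.318), both lowest on knockout 2 and 3. The brain form Ckb gave 0.54 (limma adjusted p = 0.159) and was above every wild type on all 4 knockout arrays.

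The genes outside the rule whose values over the 8 arrays were most like the members' mean were Gbas, Pdha1, Acot13, Coq10a and Mpc2. Pdha1 encodes a subunit of pyruvate dehydrogenase and Mpc2 one of the mitochondrial pyruvate carrier. Their log2 fold changes were -0.57, -0.49, -0.54, -0.75 and -0.38. Likeness was ranked by Pearson's r, which is a description here since 2 arrays set most of the range.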

How the data were processed

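The authors deposited RMA output on the log2 scale, per the submitters' processing notes, which name no version. The 2 tables carry identical numbers for 45037 probe sets. Per the file headers, the table with statistics also holds detection calls, the authors' log2 fold changes and their p-values, which were not used as results. Quantile normalization within RMA removes any overall shift between arrays. Precision is limited by having 4 arrays in each group.

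Per gene, the probe set of highest mean was kept (20667 genes). Bright probe sets can be shared with other transcripts: 19 of the 82 members rest on one whose ID carries an s or x mark. Genotypes were compared by a two-sided moderated test without covariates (limma 3.58.1, lmFit followed by eBayes, under R 4.3.3). Benjamini-Hochberg adjustment ran over the 20667 genes, and adjusted p under 0.05 was called. The labels do not say that mice came from separate litters, so p-values measure the spread between these samples. The arrays' numbers 1 to 4 carry no stated pairing. The fit was tested on simulated data. The members, lists and alternatives were chosen with earlier results of these data known, and the lists are described by counts and medians with no test of their own. The genes named are the muscle isoforms and counterparts, 3 members of smallest p and 2 of brightest probe set per complex, members near Anp32a, absent members, members higher at an unadjusted p under 0.05, members with parting probe sets, and the 5 of smallest p among those called in a fit without 1 array; others are marked in the text as picked after their values were seen. Alternatives were a replicate block, 2 further normalizations, the mean of a gene's probe sets, a filter on present calls, array weights, each array left out, knockout 2 and 3 left out, the muscle marker mean as a covariate and, added after the data were seen, probe sets without an s or x mark.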

Additional observations from a re-analysis of the deposited data

Results flagged for a closer look

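Within a group of 4, 1 array stood far from the other 3 for 2 of the 66 member groups looked at, where chance gives about 1 in 20. Both were wild type 2 reading low: Atp5g3 at 13.70, against 13.93 to 13.97 on the other wild types, and Ndufs4 at 10.94, against 11.17 to 11.20.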

How the results depend on the processing

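Members called over all genes numbered 0 in each direction, except that leaving out 1 array gave 0 to 11 lower and 0 to 1 higher, the 11 and the 1 without knockout 4. Members lower at an unadjusted p under 0.05, 29 in the plain comparison, numbered 64 with the replicate block, 44 with array weights, 7 to 62 with 1 array left out (12, 46, 8 and 10 without wild types 1 to 4, and 54, 8, 7 and 62 without knockouts 1 to 4), 2 without knockout 2 and 3, and 2 with the muscle covariate. Of all genes, 9.26% were lower in the plain comparison and 12.1% without knockout 4. The share was 3.93% without knockout 2 and 3 and 3.75% with the covariate. It is not given for the other settings, so their counts cannot be set against all genes. Without knockout 2 and 3 the median log2 fold change was -0.059 over the members, and -0.071, -0.056, -0.045, 0.005 and -0.053 for complexes I to V, a turn of sign for complex IV. With the muscle covariate it was 0.019 over the members and -0.011, 0.043, 0.030, 0.064 and 0.020 for complexes I to V. Cox7a1 against Cox7a2 changed by 0.094 without knockout 2 and 3, a turn of sign. No isoform pair passed in the settings that could reach the threshold, and even there a lone pair could not pass after adjustment. The exact p cannot go below 0.125 with the replicate block or 0.0667 without knockout 2 and 3, so neither could pass. The labels state no pairing, and the numbers were not taken as pairs. Deviations of same-numbered arrays from their group means correlated at 0.0891, 0.555, -0.387 and 0.335. Arrays of different number were not compared in this way, so these values do not decide whether the numbers are pairs. Array weights and the covariate were not run for the pair test. Without knockout 2 alone the median was -0.21 over the members, -0.25 for complex II, -0.23 for III and -0.071 for IV, and the pair differences were -0.72 for Cox6a, -0.26 for Cox7a and -0.67 for Cox8, each over 1.5 times smaller. The other settings moved these medians by less than the spread between arrays. With 4 arrays per group, and 2 of the 4 knockouts apart from the rest, small differences in single genes cannot be resolved.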
